A study of Saccharomyces cerevisiae with 6 samples.

Results

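The SEC genes of Saccharomyces cerevisiae encode the machinery that moves proteins from the endoplasmic reticulum to the cell surface. All genes whose symbol is SEC followed by digits only were taken, which gave 36 genes, each read by 1 probe set, of 5449 genes measured. Total RNA came from yeast labelled BY4743, and 6 Affymetrix arrays of a single colour measured it. In the first group, 3 samples (zymolyase with MagExtractor) spent 20 min at 25 °C with zymolyase, a preparation of enzymes that digest the glucan of the yeast wall, before RNA isolation with the MagExtractor kit. The other group of 3 samples (control with Pro Red) had no zymolyase step, and the FastRNA Pro Red kit was used. Both groups grew for 2 days at 25 °C in YPD, a rich medium, and 0.01% SDS, a detergent that the controls thus had too. Enzyme and kit changed together and cannot be told apart, and each difference below is that of both combined.

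The labelled genotype is a MATa/α diploid with his3Δ1, leu2Δ0, met15Δ0, ura3Δ0 and lys2Δ0. Among the markers of mating type, the alpha-specific genes went against that label, and the a-specific genes did not. The 4 alpha-specific genes lay above the median gene on every array and the 7 a-specific genes below it, and a diploid of both mating types should express neither set. The summed signal of the alpha-specific genes was 9813 to 16822 in zymolyase and 12320 to 15105 in control arrays, and that of the a-specific genes was 244 to 402 and 207 to 255, with no gene at 0. The 9 genes that such a diploid represses summed to 8642 to 10199 in zymolyase and 7681 to 8273 in control arrays. Only 4 of these 9 lay above the median gene on every array, and 0 lay below it on every array. Their signals ran from 282.0 to 2586.6. The part of strain identity in the results was not tested.

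Signal near the 5′ end of transcripts was weaker, relative to the 3′ end, in zymolyase than in control arrays. The log2 ratio of the 3′ over the 5′ probe set, averaged over the array's 8 yeast control genes, was 2.19, 2.85 and 2.75 in zymolyase arrays and 0.58, 0.99 and 0.99 in control arrays, and each of the 8 genes had the larger ratio in zymolyase arrays. The difference was 1.74 (exact two-sided permutation p = 0.1, the smallest that 3 arrays against 3 allow). It moved with the groups and so stands beside every result below.

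Proteins that enter the secretory pathway cross into the endoplasmic reticulum through the Sec61 channel, leave it in vesicles coated with COPII, return in vesicles coated with COPI, and reach the plasma membrane in vesicles that the exocyst tethers and SNARE proteins fuse. Many SEC genes were first found as yeast mutants that pile up secretory proteins inside the cell. In a budding cell the last steps are directed to the bud, and they also deliver the enzymes and proteins that build the wall.

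Of the 36 SEC genes, 11 were higher and 12 lower in zymolyase than in control arrays, and 13 did not pass. A gene was called when its adjusted p was under 0.05 in limma, a linear model fitted to log2 signal over all genes. The called share was 63.9% of the SEC genes and 42.5% of all genes tested. Of the SEC genes 30.6% were higher, against 22.5% of all genes, and 33.3% were lower, against 20.0%. The median log2 change was 0.15 for the SEC genes and 0.04 for all genes, with SEC genes running from -1.65 for SEC4 to 1.80 for SEC16, and their middle range from -0.73 to 0.53. With arrays centred on their median, which lowered every change by 0.16, 9 SEC genes were higher and 12 lower, against 17.5% and 26.8% of all genes. With the replicate number as a block the counts were 12 and 13, against 31.2% and 27.3% of all genes, so the called share of all genes lay nearer to that of the SEC genes. Without both arrays numbered 1 they were 14 and 14, against 32.6% and 28.3%. The SEC genes thus moved in both directions. Of the steps with 3 or more SEC genes, only the exocyst had its called SEC genes all in a single direction in the main fit. With the length trend removed 0 exocyst SEC genes were called, and the COPI coat had 0 higher and 2 lower. In 26 of the 36 genes the 3 zymolyase values lay apart from the 3 control values, as they did in 52.9% of all genes. All 36 had signals from 175.5 to 6589.6, against at most 10.9 for the 95th percentile of the second species' probe sets on any array. The median gene had 552.0 to 677.6 by array, and some SEC genes lay below it, SEC59 on every array.

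**Figure D1:**
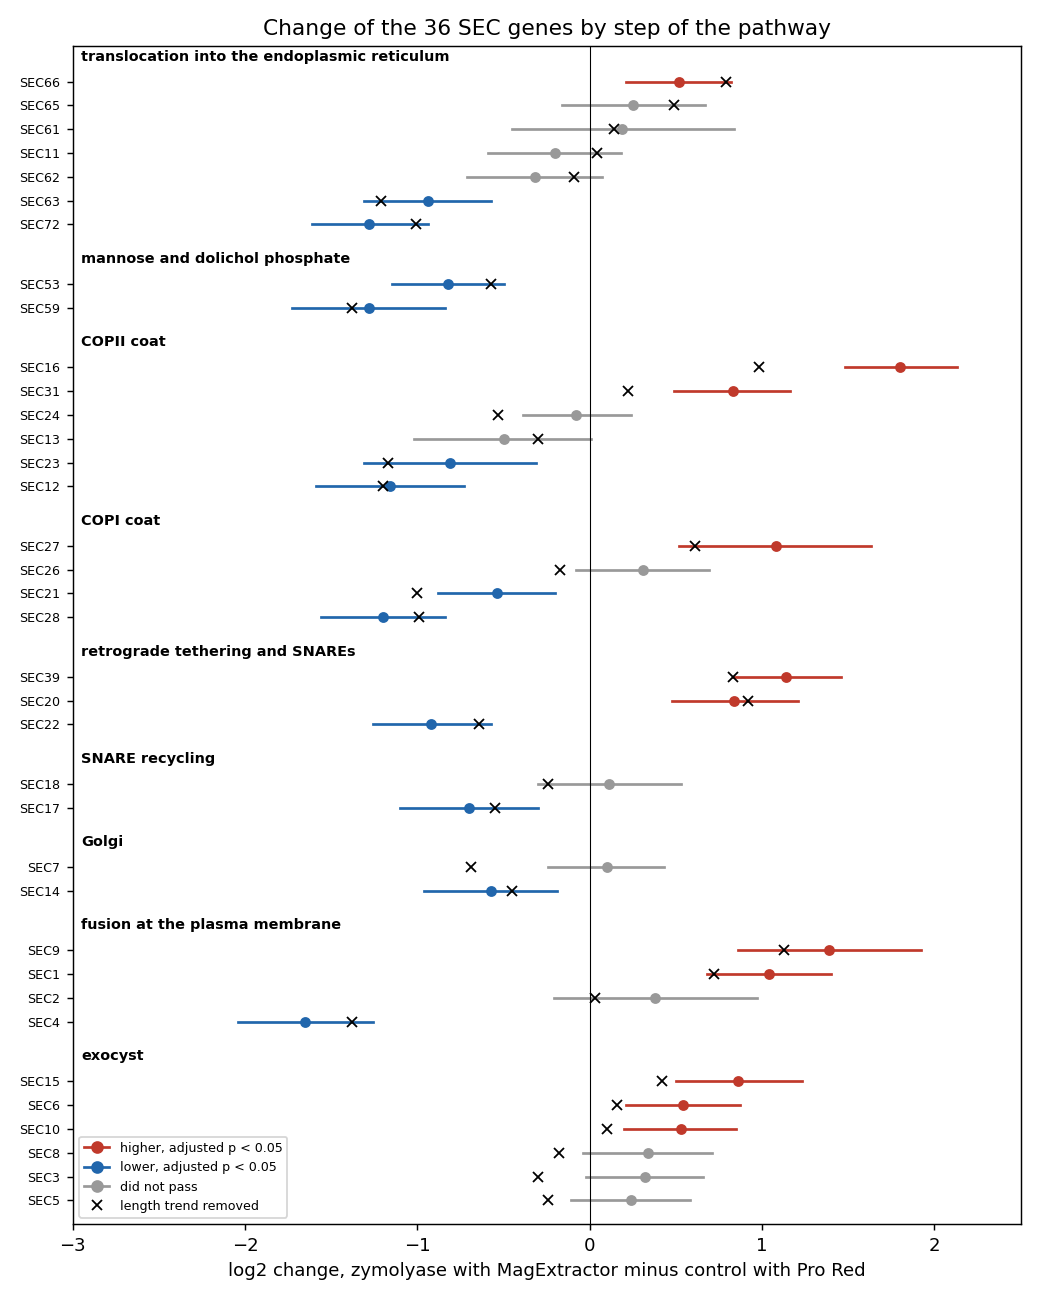
Log2 change of each SEC gene (x axis, zymolyase minus control) grouped by step of the pathway, with the 95% interval of the limma fit over 3 arrays a group; crosses give the change with the length trend removed. SEC16 at 1.80 and SEC4 at -1.65 mark the ends, and all 6 exocyst points lie right of 0 while their crosses lie between -0.30 and 0.42.

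Of the 7 SEC genes for entry into the endoplasmic reticulum, 2 fell (28.6%) and 1 rose (14.3%), against 20.0% and 22.5% of all genes. SEC72, a subunit of the complex for translocation after synthesis, had signals of 664.9, 593.9 and 742.5 in zymolyase arrays and 1514.1, 1665.0 and 1654.6 in control arrays. The groups did not overlap, and every control value was more than double the zymolyase value of the same number. The log2 change was -1.28 (SE 0.14, limma adjusted p = 0.00108), or 2.42-fold lower. SEC63, the membrane-bound partner of the chaperone Kar2 in the same complex, had 917 ± 156 in zymolyase and 1748 ± 96.4 in control arrays (mean ± SD, n = 3), a log2 change of -0.94 (SE 0.16, limma adjusted p = 0.00339). SEC66, of that complex too, went the other way, with 1724 ± 99.3 in zymolyase and 1206 ± 69.7 in control arrays (log2 change 0.52, SE 0.13, limma adjusted p = 0.0157). The call of SEC66 was lost without zymolyase array 2 (limma adjusted p = 0.0546), without control array 2 (0.0521) or 3 (0.0674), and with arrays centred on their median (0.0812), with 0.00261 to 0.0812 across the settings tried.

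SEC61, the main subunit of the channel, did not pass. It had signals of 1588.9, 3232.0 and 3096.1 in zymolyase and 1923.7, 2555.5 and 2160.1 in control arrays, and zymolyase array 1 was the lowest of the 6. Its log2 change was 0.19 (95% interval -0.45 to 0.84, limma adjusted p = 0.605), and 0.53 without zymolyase array 1 (adjusted p = 0.0375, with 0.0333 to 0.979 across the settings tried). SEC62, which brings substrates to the channel, had -0.32 (adjusted p = 0.157), SEC11, the catalytic subunit of signal peptidase, -0.20 (adjusted p = 0.356), and SEC65, a subunit of the signal recognition particle, 0.25 (adjusted p = 0.294). The intervals of these 3 genes reached at most 0.71 from 0.

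Both SEC genes for sugar donors of glycosylation fell, as did 20.0% of all genes. SEC59, the dolichol kinase, had signals of 223.4, 175.5 and 177.6 in zymolyase arrays and 379.3, 496.9 and 531.4 in control arrays. It was the dimmest SEC gene of zymolyase arrays, and the highest zymolyase value lay well under the lowest control value. Its log2 change was -1.28 (SE 0.19, limma adjusted p = 0.00225). SEC53, the phosphomannomutase that supplies GDP-mannose, had 3455 ± 249 in zymolyase and 6122 ± 709 in control arrays (mean ± SD, n = 3), a log2 change of -0.82 (SE 0.14, limma adjusted p = 0.00341).

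**Figure D2:**
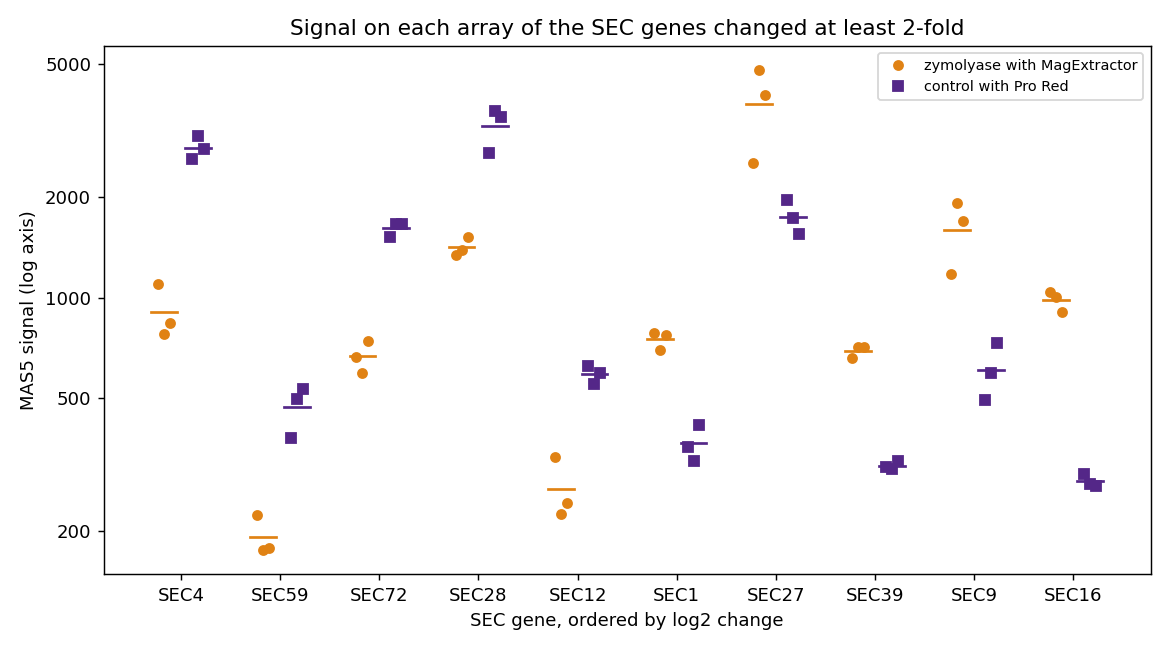
MAS5 signal (y axis, log scale) on each array for the 10 SEC genes called with a change of at least 2-fold, zymolyase arrays (circles, 3) left of control arrays (squares, 3), with the mean of each group as a bar. In each of the 10 genes the groups lie apart, 5 with zymolyase lower and 5 with zymolyase higher; across all genes 8.55% were called at least 2-fold lower and 9.82% at least 2-fold higher.

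Within the COPII coat, which buds vesicles from the endoplasmic reticulum, 2 of 6 SEC genes rose and 2 fell (33.3% each). The shares of all genes were 22.5% and 20.0%. SEC16, the scaffold that organises the exit sites, had signals of 1041.9, 1002.3 and 908.3 in zymolyase arrays and 297.4, 276.6 and 272.6 in control arrays. The 3 values of each group lay close together and far from the other group. This was the largest rise among the SEC genes, at 3.48-fold (log2 1.80, SE 0.14, limma adjusted p = 0.000851). With 6588 bases SEC16 is also the longest SEC gene, and its log2 change after removal of the length trend was 0.98 (adjusted p = 0.00257). SEC31, of the outer cage, had 2203 ± 38.6 in zymolyase and 1249 ± 158 in control arrays (mean ± SD, n = 3; log2 change 0.83, SE 0.14, limma adjusted p = 0.00368), and 0.22 with the length trend removed (adjusted p = 0.265, with 4.21e-05 to 0.265 across the settings tried).

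SEC12, the exchange factor that loads the GTPase Sar1 and starts the coat, had signals of 332.8, 225.3 and 242.8 in zymolyase arrays and 624.3, 550.7 and 593.1 in control arrays. All zymolyase values lay below all control values. The fall was 2.24-fold (log2 -1.16, SE 0.19, limma adjusted p = 0.00273). SEC23, the coat subunit that stimulates GTP hydrolysis by Sar1, had 1433.8, 813.4 and 962.8 in zymolyase arrays and 1950.6, 1818.4 and 1706.9 in control arrays. Zymolyase array 1 was nearest to the controls, but the groups did not overlap. Its log2 change was -0.81 (SE 0.22, limma adjusted p = 0.0184), and the call was lost without zymolyase array 2 (0.0622) or 3 (0.0657) or control array 2 (0.0568), with 8.98e-06 to 0.0657 across the settings tried. SEC24, which binds cargo in complex with Sec23, had a log2 change of -0.08 (95% interval -0.39 to 0.24, adjusted p = 0.689). It passed with the length trend removed, at -0.53 (adjusted p = 0.0221, with 0.0221 to 0.982 across settings). SEC13, the other cage subunit, had -0.50 (adjusted p = 0.104) with overlapping groups, and passed with the replicate number as a block (adjusted p = 0.0125, with 0.0125 to 0.353 across settings).

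The COPI coat, which returns material from the Golgi to the endoplasmic reticulum, was also split. SEC27, for the beta prime subunit, had signals of 2524.4, 4796.6 and 4039.2 in zymolyase arrays and 1956.8, 1730.6 and 1544.4 in control arrays. Zymolyase array 1 was the lowest of its group and still above all controls. The log2 change was 1.08 (SE 0.24, limma adjusted p = 0.00916), and 0.61 with the length trend removed (adjusted p = 0.086, with 1.03e-06 to 0.086 across settings). SEC28, for the epsilon subunit that binds in the same subcomplex, had signals of 1336.3, 1389.1 and 1518.6 in zymolyase arrays and 2705.1, 3616.8 and 3472.1 in control arrays. The highest zymolyase value lay well below the lowest control value. It fell 2.29-fold (log2 -1.20, SE 0.16, limma adjusted p = 0.00141).

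SEC21, for gamma-COP, had 1811 ± 196 in zymolyase and 2630 ± 245 in control arrays (mean ± SD, n = 3; log2 change -0.54, SE 0.15, limma adjusted p = 0.0203). That call was lost without zymolyase array 2 (0.0708) or control array 2 (0.0788) or 3 (0.0688), with 0.00247 to 0.0788 across the settings tried; with the length trend removed it held (0.00384). SEC26, for beta-COP, had a log2 change of 0.31 (95% interval -0.08 to 0.69, adjusted p = 0.176), which passed with the replicate number as a block (adjusted p = 0.0367) and, after removal of the length trend, had the opposite sign (-0.17, adjusted p = 0.488), with adjusted p at 0.0367 to 0.568 across settings.

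All 3 SEC genes for docking and fusion of retrograde vesicles were called, as were 42.5% of all genes. SEC39, a subunit of the Dsl1 tethering complex at the endoplasmic reticulum, had signals of 657.9, 712.1 and 711.2 in zymolyase arrays and 310.8, 307.0 and 325.4 in control arrays. These are among the tightest values of the SEC genes, and every zymolyase value was about double the control values. The log2 change was 1.14 (SE 0.14, limma adjusted p = 0.0011). SEC20, a SNARE that binds this complex, had 662 ± 80.6 in zymolyase and 368 ± 26.3 in control arrays (mean ± SD, n = 3), a log2 change of 0.84 (SE 0.16, limma adjusted p = 0.00462). SEC22, the SNARE that rides on vesicles in both directions between endoplasmic reticulum and Golgi, fell, with 542 ± 62.6 in zymolyase and 1019 ± 59.3 in control arrays (log2 change -0.92, SE 0.15, limma adjusted p = 0.00279).

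SNARE recycling needs the ATPase Sec18 and its adaptor Sec17. SEC17 had 974 ± 122 in zymolyase and 1587 ± 246 in control arrays (mean ± SD, n = 3; log2 change -0.70, SE 0.17, limma adjusted p = 0.014), and the call was lost without zymolyase array 2 (0.054) or control array 2 (0.0593) or 3 (0.0586), with 0.000106 to 0.0593 across the settings tried. SEC18 had a log2 change of 0.11 (95% interval -0.30 to 0.53, adjusted p = 0.64), which was -0.05 with arrays centred on their median, -0.24 with the length trend removed and -0.0013 without zymolyase array 3. At the Golgi, SEC14, the phosphatidylinositol and phosphatidylcholine transfer protein, had 1452 ± 193 in zymolyase and 2161 ± 314 in control arrays (log2 change -0.57, SE 0.17, limma adjusted p = 0.0263). Of the called SEC genes it lay nearest to the threshold, and its call was lost with the length trend removed (0.053), without control array 1 (0.0564) or 2 (0.068) and without zymolyase array 2 (0.0902) or 3 (0.0887), with 0.00225 to 0.0902 across settings. SEC7, the exchange factor of the Golgi GTPase Arf1, had a log2 change of 0.10 (95% interval -0.24 to 0.43, adjusted p = 0.622). SEC7 has 6030 bases, and its change was -0.69 with the length trend removed (adjusted p = 0.0107, with 0.0107 to 0.892 across settings) and -0.06 with arrays centred on their median.

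At the plasma membrane, the genes of the fusion step held the largest fall of the SEC genes and the second largest rise. SEC4, the Rab GTPase of secretory vesicles, had signals of 1095.1, 777.6 and 837.4 in zymolyase arrays and 2604.6, 3048.5 and 2779.4 in control arrays. All zymolyase values were under all control values by a wide margin. The fall was 3.14-fold (log2 -1.65, SE 0.17, limma adjusted p = 0.001), and -1.38 on the log2 scale after removal of the length trend. SEC2, the exchange factor that activates Sec4, had 443.6, 882.2 and 601.6 in zymolyase arrays and 419.4, 473.0 and 541.2 in control arrays. Zymolyase array 1 lay among the controls, and SEC2 did not pass (log2 change 0.38, 95% interval -0.21 to 0.97, limma adjusted p = 0.265). Without both arrays numbered 1 its log2 change was 0.53 (adjusted p = 0.0126, with 0.0126 to 0.943 across settings).

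SEC9, the plasma membrane SNARE that receives the vesicles, had signals of 1179.9, 1920.8 and 1693.7 in zymolyase arrays and 493.2, 593.9 and 731.3 in control arrays. The groups lay apart, with the widest spread in zymolyase arrays. It rose 2.62-fold (log2 1.39, SE 0.23, limma adjusted p = 0.00294). SEC1, the protein that binds the assembled SNAREs at this site, had 781.7, 698.7 and 771.1 in zymolyase arrays and 358.4, 325.4 and 416.4 in control arrays. Every zymolyase value was well above the controls. It rose 2.05-fold (log2 1.04, SE 0.15, limma adjusted p = 0.00214). With the length trend removed SEC9 changed by 1.13 and SEC1 by 0.72, and both still passed (adjusted p = 0.00935 and 0.00688).

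The exocyst, which tethers vesicles before fusion, has 6 SEC subunits. Of these, 3 rose, 0 fell and 3 did not pass by limma, with the same counts at an unadjusted p under 0.05, and their median log2 change was 0.43. SEC15, the subunit that Sec4 binds, had 1193 ± 160 in zymolyase and 654 ± 59.7 in control arrays (mean ± SD, n = 3; log2 change 0.86, SE 0.16, limma adjusted p = 0.00432). SEC6 had a log2 change of 0.54 (SE 0.14, adjusted p = 0.0185) and SEC10 of 0.53 (SE 0.14, adjusted p = 0.018). In all 6 SEC subunits the groups lay apart with zymolyase higher, as in 27.2% of all genes. SEC3, SEC5 and SEC8 did not pass (log2 changes 0.32, 0.24 and 0.34, adjusted p = 0.111, 0.233 and 0.13). The exocyst genes EXO70 and EXO84, which have no SEC symbol, had log2 changes of 0.09 and -0.03 (limma adjusted p = 0.792 and 0.905). The groups overlapped in both genes. The interval of EXO70, -0.47 to 0.65, included the SEC subunits' median of 0.43, and that of EXO84, -0.38 to 0.32, did not. With the length trend removed EXO70 had -0.14 and EXO84 -0.37. Whether EXO70 and EXO84 differed from the SEC subunits was not tested.

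The 6 SEC genes of the exocyst are long, with a median of 2824.5 bases. With the length trend removed 0 of them were called, against 18.1% higher and 19.9% lower of all genes, and their median change was -0.04. SEC15 then had 0.42 (adjusted p = 0.0646, with 3e-05 to 0.0646 across the settings tried), SEC6 0.16 (0.444, with 0.00635 to 0.444 across settings) and SEC10 0.10 (0.549, with 0.00349 to 0.549 across settings), while SEC3, SEC5 and SEC8 were below 0 at -0.30, -0.24 and -0.18. The call of SEC6 was also lost without zymolyase array 2 (0.0549) or 3 (0.0725) and with arrays centred on their median (0.0778), and that of SEC10 without zymolyase array 3 (0.0829) or control array 2 (0.0789).

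For 7 sets of SEC genes whose products bind one another, picked after their changes were known, the log2 ratio within each array is given as a description with no test. The ratio of SEC27 over SEC28 was 0.92, 1.79 and 1.41 in zymolyase arrays and -0.47, -1.06 and -1.17 in control arrays, a shift of 2.27, and 1.60 with the length trend removed. SEC66 over SEC72, within the translocation complex, shifted by 1.79, and by 1.80 with the trend removed. SEC2 over SEC4 shifted by 2.03, and by 1.41 with it removed. Signals of separate probe sets have no shared scale, so only the shift of each ratio between the groups can be read. SEC31 over SEC13 shifted by 1.33 and SEC18 over SEC17 by 0.81, but by 0.53 and 0.31 with the length trend removed. SEC26 over SEC21 shifted by 0.85 and SEC23 over SEC24 by -0.74, and these were 0.83 and -0.64 with the trend removed.

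The change of the SEC genes differed with their length. Of the 11 SEC genes shorter than 1000 bases 6 fell and 1 rose, and of the 18 with 2000 bases or more 8 rose and 2 fell. Of the 7 SEC genes between these lengths 2 rose and 4 fell, and their median of -0.57 lay below the 0.06 of all genes of that length. The medians of the shorter and longer SEC genes were -0.70 and 0.36, against -0.21 and 0.51 for all genes of those lengths. At both ends all genes ran the same way, since 29.7% of those shorter than 1000 bases fell and 9.73% rose, whereas 47.1% of those with 2000 bases or more rose and 6.43% fell. Lengths are those of the annotated gene from start to end, introns included. Across the 36 SEC genes, which share the same 6 arrays, Spearman's rho between change and length was 0.51, against 0.34 across all 5449 genes, and arrays 1, 2 and 3, each zymolyase array set against the control array of its number, gave 0.56, 0.49 and 0.48. With the length trend of all genes subtracted from each array, 6 SEC genes were higher and 13 lower, against 18.1% and 19.9% of all genes, and the median SEC change was -0.21. Of the 23 called SEC genes 17 kept their call and direction, among them 11 of the 12 that fell and 6 of the 11 that rose.

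Several SEC genes, picked after their values were seen, went against the trend of their length. SEC63, SEC23 and SEC21 fell although they have 1992, 2307 and 2808 bases, and their log2 changes lay 1.20, 1.25 and 0.98 below the median of their length class. SEC66, with 621 bases, rose and lay 0.85 above the median of its class. SEC20, SEC12 and SEC59, with 1152, 1416 and 1560 bases, were in classes with medians of only -0.05, 0.07 and 0.08. SEC20 lay 0.89 above the median of its class, and SEC12 and SEC59 lay 1.23 and 1.36 below theirs.

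**Figure D3:**
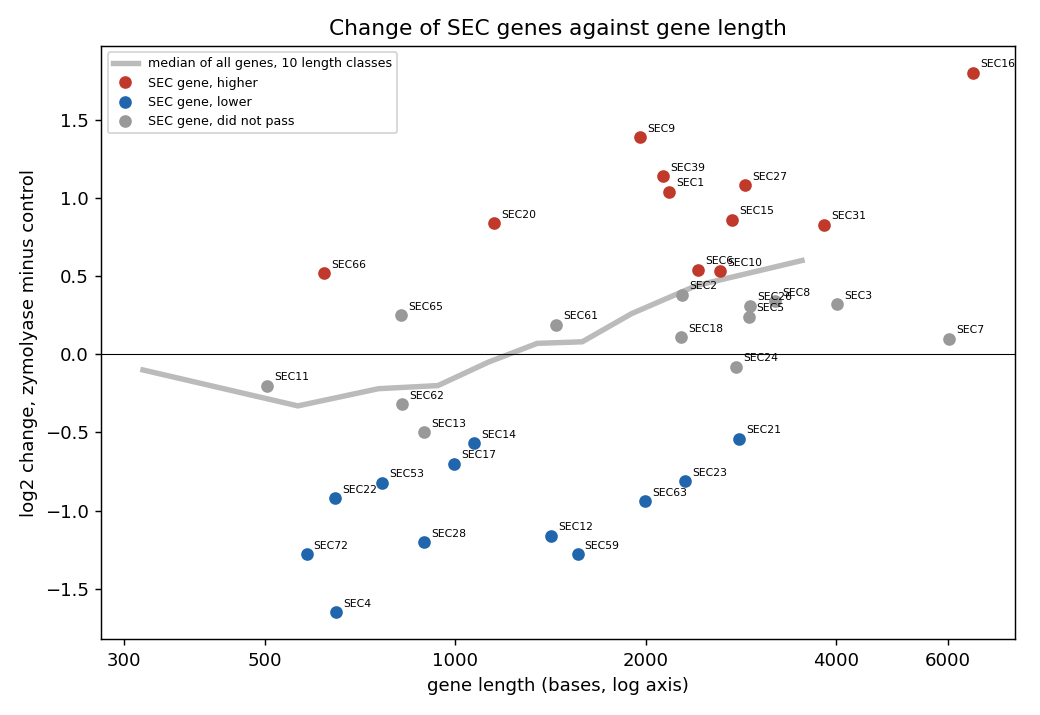
Log2 change (y axis, zymolyase minus control) against gene length (x axis, bases, log scale) for the 36 SEC genes, coloured by call, with the median of all genes in 10 length classes as a grey line. The line climbs to 0.60 in the longest class; SEC16 lies above it at 1.80, and SEC63, SEC23 and SEC21 lie below it at -0.94, -0.81 and -0.54.

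Other genes of the same steps were taken as 7 lists. Of 96 listed genes 95 were measured, 17 rose, 29 fell and 49 did not pass, and their median log2 change was -0.05. Of the measured genes 17.9% rose and 30.5% fell, against 22.5% and 20.0% of all genes. They are shorter than the SEC genes, with a median of 852.0 bases against 2061.0. Of all genes shorter than 1000 bases, 29.7% fell and 9.73% rose. With the length trend removed 13 partner genes rose and 22 fell, against 18.1% and 19.9% of all genes. With arrays centred on their median 11 rose and 36 fell, against 17.5% and 26.8% of all genes. The number that rose was 11 without zymolyase array 2 and 9 without zymolyase array 3, and the number that fell was 19 without control array 2.

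The list of COPII components and cargo receptors had 15 measured genes, with a median change of -0.59 and a median length of 933 bases. By limma 9 fell (60.0%) and 0 rose (1 was higher at an unadjusted p under 0.05), against 20.0% and 22.5% of all genes. Of all genes shorter than 1000 bases 29.7% fell. Cargo receptors recruit proteins into COPII vesicles. ERV29, the receptor for soluble cargo such as the alpha-factor precursor, had 840.8, 597.5 and 670.2 in zymolyase arrays and 2077.4, 2099.7 and 1972.9 in control arrays. All zymolyase values were far below any control value. It fell 2.95-fold (log2 -1.56, SE 0.16, limma adjusted p = 0.001). ERV14, a receptor for membrane proteins, fell 2.47-fold (log2 -1.30, SE 0.15, limma adjusted p = 0.00108). With the length trend removed 8 of the 15 fell and 0 rose, with a median of -0.52, against 19.9% and 18.1% of all genes.

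Of 15 partners in entry into the endoplasmic reticulum 2 rose (13.3%) and 3 fell (20.0%), against 22.5% and 20.0% of all genes. With the length trend removed 4 rose and 2 fell, against 18.1% and 19.9% of all genes. SPC3, the essential subunit of signal peptidase beside Sec11, fell 2.64-fold (log2 -1.40, SE 0.17, limma adjusted p = 0.00112), and SPC1, of the same enzyme, had a log2 change of -1.38 (adjusted p = 0.0219), lost without control array 2 (0.0745) or 3 (0.0753), with 7.96e-07 to 0.0753 across settings. SRP72 and SRP54, of the signal recognition particle, had log2 changes of 1.24 (adjusted p = 0.014) and 0.59 (adjusted p = 0.00789). The call of SRP72 was lost without zymolyase array 2 (0.0527) or 3 (0.0516), with 2.19e-07 to 0.0527 across settings. In the supply of mannose and dolichol phosphate 2 of 8 fell by limma (25.0%, against 20.0% of all genes). None rose, or 0 against 22.5% of all genes (1 was higher at an unadjusted p under 0.05). The 2 that fell were CAX4, a phosphatase of dolichol pyrophosphate (log2 -1.29, adjusted p = 0.00736), and PMI40, which makes the mannose phosphate that Sec53 uses (log2 -0.85, adjusted p = 0.00792). With the length trend removed 3 of the 8 rose and 2 fell, against 18.1% and 19.9% of all genes. The median of the 8 was then 0.29 in place of 0.13.

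Of 9 partners of the COPI coat and retrieval 1 rose (11.1%) and 3 fell (33.3%), against 22.5% and 20.0% of all genes. Once the length trend was removed these counts were 0 and 2, against 18.1% and 19.9% of all genes. COP1, for alpha-COP, which forms a subcomplex with Sec27 and Sec28, rose 1.72-fold (log2 0.78, limma adjusted p = 0.00789, and 0.397 with the length trend removed, with 0.000506 to 0.397 across settings). ERD2, the receptor that retrieves HDEL proteins, fell 1.97-fold (log2 -0.98, adjusted p = 0.00432), and RER1, a retrieval receptor of membrane proteins, 1.70-fold (log2 -0.77, adjusted p = 0.0078). Of 14 SNAREs and Dsl1 components 4 rose (28.6%) and 4 fell (28.6%), against 22.5% and 20.0% of all genes. Once the length trend was removed these counts were 1 and 3, against 18.1% and 19.9% of all genes. DSL1, of the complex that holds Sec39, had a log2 change of 0.73 (adjusted p = 0.0057, and 0.0642 with the length trend removed, with 0.000197 to 0.0642 across settings), and TLG2, an endosomal SNARE, 1.12 (adjusted p = 0.00119). The SNARE genes VTI1 and BOS1 fell by 1.34 and 0.84 on the log2 scale (adjusted p = 0.00108 and 0.00305).

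Of 21 Golgi genes 5 rose (23.8%) and 7 fell (33.3%), against 22.5% and 20.0% of all genes. Once the length trend was removed 2 rose and 3 fell, against 18.1% and 19.9% of all genes. TRS130 and TRS120, large subunits of the TRAPPII tether, both had log2 changes of 0.93 (adjusted p = 0.00205 and 0.0018), and that of TRS120 did not pass with the length trend removed (0.0752, with 5.88e-06 to 0.0752 across settings). TRS31, a small TRAPP subunit, fell 2.17-fold (log2 -1.12, adjusted p = 0.00325), and KES1, an oxysterol-binding protein whose loss bypasses the need for Sec14, 1.75-fold (log2 -0.81, adjusted p = 0.00471). Of 13 exocytosis genes 5 rose (38.5%) and 1 fell (7.69%), against 22.5% and 20.0% of all genes. Once the length trend was removed these counts were 3 and 2, against 18.1% and 19.9% of all genes. MYO2, the myosin that carries vesicles to the bud, had a log2 change of 1.24 (adjusted p = 0.0254), lost with the length trend removed (0.275), without zymolyase array 2 (0.0976) or 3 (0.0768) and with arrays centred on their median (0.0504), with 2.94e-05 to 0.275 across settings. SRO77, a Sec9-binding protein, had 0.88 (adjusted p = 0.0113, and 0.146 with the length trend removed, with 0.000783 to 0.146 across settings), and RHO3, a GTPase of polarised secretion, fell 1.64-fold (log2 -0.71, adjusted p = 0.00586).

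**Figure D4:**
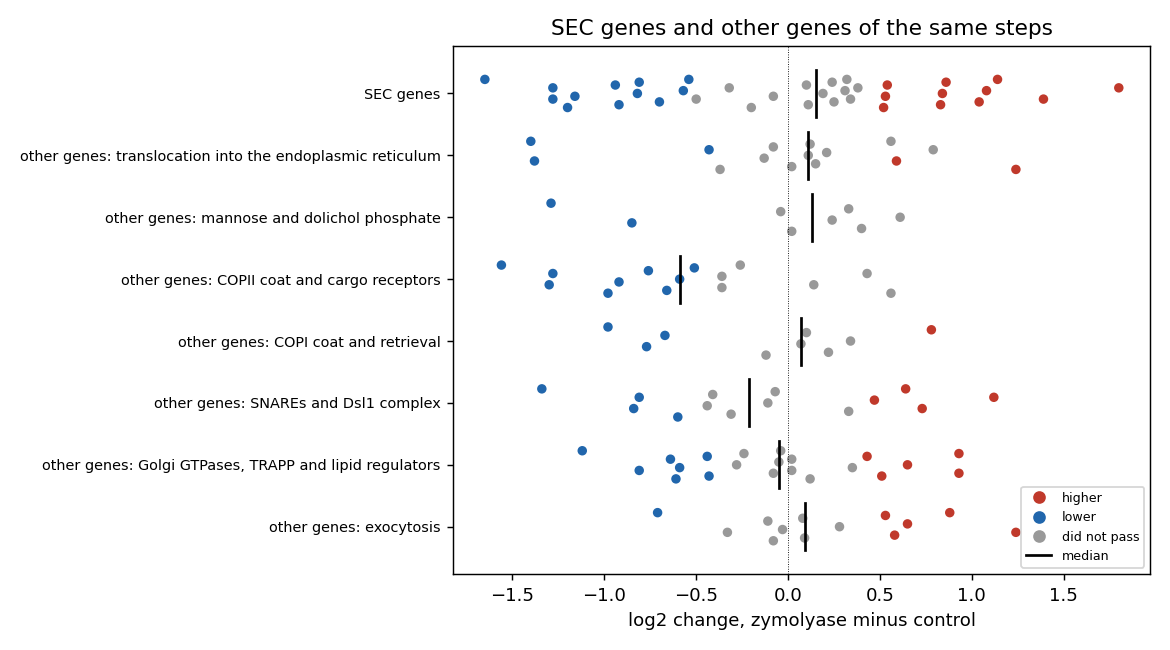
Log2 change (x axis, zymolyase minus control) of the 36 SEC genes (top row) and of the 95 other genes of the same steps in 7 lists; each point is a gene coloured by call, with vertical scatter for legibility only, and the black bar is the median. The list of COPII components and cargo receptors lies lowest, with a median of -0.59, and holds no called rise.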

How the data were processed

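Gene expression was measured in 3 zymolyase samples (MagExtractor kit) and 3 control samples (Pro Red kit) on single-colour Affymetrix arrays, from about 4 µg of total RNA per sample per the labels' protocols. The authors deposited 1 intensity per probe set and array, the MAS5 signal (linear), as named in the submitters' processing notes; the MAS5 version, settings and detection calls are not given in the sources used here. The trimmed mean of every deposited array was 500.2 or 500.3 (2% trimmed at each end), so arrays had been scaled alike. Zeros were set to 0.1, and none lay in a SEC gene. The number of arrays limits the precision.

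Gene names came from the platform annotation, matched by gene identifier to the NCBI table of assembly R64: 7244 of 10928 probe sets had a single symbol, 1 had several and 3683 had none, and 5498 matched S. cerevisiae. Where a gene had several (47 genes), its brightest probe set was used. Log2 signal was fitted with limma 3.58.1 in R 4.3.3 (lmFit, eBayes with an intensity trend) over all 5449 genes, with Benjamini-Hochberg adjustment and a threshold of 0.05, after the procedure was tested on simulated data. SE is the moderated standard error. Intervals are 95% intervals of that fit. Whether replicates were separate cultures is not said in the labels, and p-values then cover the spread among these samples alone, which may be technical. At most 0.202% of gene signals were identical between any arrays.

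The length trend was removed by subtracting, on each array, a loess curve (span 0.5) of each gene's deviation from its mean on log2 gene length. The SEC genes and the partner lists were chosen with earlier results of these data known. All SEC genes are named, with every array's value where a called change reached 2-fold and the groups did not overlap. SEC2, SEC23 and SEC61 were given by array after their values were seen. From each partner list, up to 2 called genes in each direction with the largest change are named. EXO70 and EXO84 were added to these after their values were seen. Both groups carry the numbers 1 to 3. As a check of pairing, each array's deviation from its group mean was correlated over genes with that of the array of the same number (r = 0.49, 0.20 and 0.41). All 3 passed the limit of 0.1 for pairing, but zymolyase array 2 with control array 3 and zymolyase array 3 with control array 2 also reached 0.20 and 0.23, and the labels state no pairing. All reported values come from the fit without a block, and the replicate number as a block is an alternative. Alternatives changed normalization, pseudocount, dim genes, features tested, variance trend, pairing, length trend, probe set choice and the arrays used.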

Additional observations from a re-analysis of the deposited data

How the results depend on the processing

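Of 576 comparisons of a SEC gene with an alternative, 529 kept direction and side of the threshold, 28 lost a call and 9 gained one with the same sign. The other 10 changed sign, none of them in a gene called in the main fit. Among these 10, SEC7 passed with the length trend removed (limma adjusted p = 0.0107). In 13 of the 23 called SEC genes the call held in all 16 alternatives: SEC1, SEC4, SEC9, SEC12, SEC16, SEC20, SEC22, SEC28, SEC39, SEC53, SEC59, SEC63 and SEC72. With the length trend removed 6 SEC genes were higher in place of 11, and the median SEC change was -0.21 in place of 0.15. It was -0.01 with arrays centred on their median, which lowered all changes by 0.16. With that trend removed the log2 change was -0.30 for SEC3, -0.24 for SEC5, -0.69 for SEC7, -0.18 for SEC8, 0.04 for SEC11, -0.24 for SEC18 and -0.17 for SEC26. With centring it was -0.06 for SEC7 and -0.05 for SEC18, and SEC18 ran from -0.0013 to 0.23 when arrays were left out in turn, the lowest without zymolyase array 3. The cause was not tested beyond these alternatives.

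Leaving out each array in turn gave 9 to 12 SEC genes higher and 8 to 12 lower, a median of 0.05 to 0.20, 9 to 20 partner genes higher and 19 to 28 lower, 851 to 1350 of all genes higher and 740 to 1175 lower, and a 3′/5′ difference of 1.61 to 1.95. Without both arrays numbered 1, 14 SEC genes were higher and 14 lower, with SEC2, SEC3, SEC13, SEC61 and SEC62 added, and 1779 and 1543 of all genes. With the replicate number as a block 12 were higher and 13 lower, SEC26 and SEC13 being added, no other SEC call changed, and 1702 of all genes were higher and 1490 lower. With centring 11 partner genes were higher, and 951 of all genes were higher and 1463 lower, against 1224 and 1092. Quantile normalization, a pseudocount of 16, no intensity trend, leaving out the dimmest genes, averaging probe sets and testing all probe sets changed no SEC call.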

Other observations

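The array's second yeast species has 29 probe sets with a sec symbol of the same form. Their signals ran from 0.1 to 14.2 with a median of 1.7, and 4 of the 29 passed the 95th percentile of that species' probe sets on at least 1 array. The lowest signal of any S. cerevisiae SEC gene was 175.5.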
